A study of Sus scrofa with 35 samples.

Results

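Hypoxia-inducible factors and the enzymes that regulate them were described here in the longissimus dorsi muscle of growing pigs kept in thermoneutral (TN) or heat stress (HS) conditions. The members were HIF1A, EPAS1, ARNT, EGLN1, EGLN2, EGLN3, VHL and BNIP3, taken by the gene name that the scanner files give to each probe. Of these 8 genes, 6 had at least 1 probe under that name, with 20 probes among the 60305 probes of the array, which carry symbols of 11693 genes. No probe was found under VHL, the subunit that marks hydroxylated HIF for destruction, or under BNIP3, a mitophagy receptor that HIF switches on, and neither gene was analysed here. The animals were castrated males of the Creole breed, the Large White breed and their F1 cross. The TN pigs were sampled at 24 °C. The HS pigs carry a label of 30 °C, whereas the protocol and the study's methods give exposure to 32 °C for up to 5 days. Each of the 6 groups held 6 pigs, 1 array per pig, except F1 HS with 5, which makes 35 arrays (18 TN and 17 HS). By the study's methods, pigs came in blocks of littermates and were penned by breed, and whole pens were slaughtered at 1 temperature. Pigs of a group thus shared litters, pens and slaughter days, but the labels do not say which. The temperature groups were sampled on different days. The p-values measure the spread between these animals, taken as independent, and temperature cannot be told apart from the day of sampling.

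As background, HIF is a pair of proteins, an oxygen-labile alpha subunit (HIF-1 alpha from HIF1A or HIF-2 alpha from EPAS1) and a stable beta subunit from ARNT. When oxygen is present, the prolyl hydroxylases encoded by EGLN1, EGLN2 and EGLN3 hydroxylate prolines of the alpha subunit, VHL binds it and the proteasome destroys it. A further hydroxylase, FIH from HIF1AN, modifies an asparagine near the end of the alpha subunit and blocks the binding of coactivators. Because control is mostly on the protein, the RNA levels measured here do not report HIF activity. EPAS1 is abundant in endothelium, and HIF1A in many cell types, leukocytes included.

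A pair of probes is shown because the results on EPAS1 and HIF1A turn on them and because they lie in the stretches that these hydroxylases act on. Each is 60 bases, written 5′ to 3′ as in the scanner files. Capitals mark the codon of the proline that the EGLN enzymes hydroxylate in the first, and the codon of the asparagine that FIH hydroxylates in the second, both found by translating the probe.
HIF1A A_72_P585741: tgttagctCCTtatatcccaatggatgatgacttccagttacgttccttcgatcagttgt
EPAS1 A_72_P441713: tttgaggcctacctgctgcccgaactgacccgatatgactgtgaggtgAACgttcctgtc
In the files, A_72_P585741 starts at base 1831 of the porcine HIF1A transcript, and another HIF1A probe, A_72_P213487, at base 2799 of the same transcript. A_72_P441713 starts at base 2599 of the EPAS1 transcript. The remaining HIF1A probes, A_72_P280249 and O277, have no start in the files and share a run of 57 bases, so they are close to 1 measurement.

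Values are log2 of the median spot intensity after quantile normalisation, so a difference of 1 is a doubling, and levels of different probes are not comparable. The share of probes well above background ran from 58.4% to 75.9% over the 35 arrays. All 20 member probes passed the filter on dim probes, and 19 of them were well above background on all 35 arrays. The exception was ARNT O5420, on 32. A probe was called when its adjusted p was below 0.05 in limma over all 41517 probes tested. The tissue was checked on muscle fibre genes, whose mean level per array lay between 17.5 and 18.0. Leukocyte markers differed widely between arrays, and their mean level ran from 8.13 to 11.01 in TN and from 9.54 to 11.36 in HS. In the HS pigs, 6 of 13 leukocyte markers tested were called higher and none lower (median difference 0.74), led by LYZ, LAPTM5 and TYROBP. Of 9 endothelial markers tested, 1 (VWF) was called lower and the median difference was −0.20. In whole muscle, fewer cells of a type and less RNA per cell cannot be told apart.

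Heat stress came with lower EPAS1 RNA, whereas the probes of HIF1A disagreed and the hydroxylases did not pass the test. Over the 3 breeds together, 5 of the 20 member probes were called, all lower in HS, where 16% of all probes were called in either direction, 7.73% higher and 8.3% lower. The 5 were 3 probes of EPAS1, 1 of HIF1A and 1 of ARNT. In each of the 4 other comparisons of temperature with or within breeds (within Creole, within F1, within Large White, and the breed by temperature interaction), 0 member probes were called by limma. The share of all probes called was 1.91% within Creole, 0.00482% within F1, 0.00482% within Large White and 0% for the interaction. At an unadjusted p below 0.05, the counts of member probes were 7, 3, 3 and 0 of 20. The shares of all probes at that same cut-off were 21.5% within Creole, 8.3% within F1 and 16.6% within Large White.

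**Figure D1:**
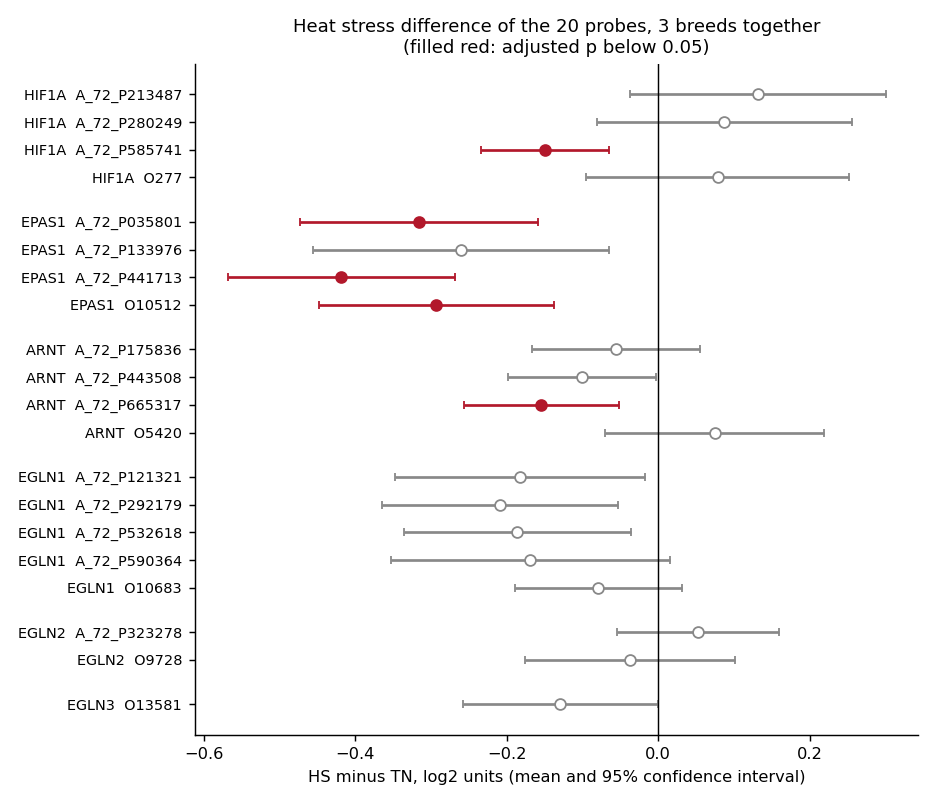
HS minus TN in log2 units for each of the 20 probes, 3 breeds together, with the 95% confidence interval from limma (18 TN and 17 HS arrays). Filled red points passed an adjusted p of 0.05. The 4 EPAS1 probes lie between −0.42 and −0.26, and the 4 HIF1A probes lie on both sides of 0.

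EPAS1 encodes HIF-2 alpha. Probe A_72_P441713 had a lowest, median and highest level of 9.18, 9.69 and 9.99 over the 18 TN arrays. Over the 17 HS arrays the same values were 8.85, 9.24 and 9.70. The ranges overlapped, and 16 of 17 HS arrays lay below the TN mean of their own breed. The probe fell by 0.42 on the log2 scale (SE 0.07, 95% confidence interval −0.57 to −0.27, adjusted p = 0.000375), which is 0.748 of the TN level. The TN and HS pigs were different animals. The mean ± SD was 9.70 ± 0.16 over the 6 Creole TN pigs and 9.25 ± 0.27 over the 6 Creole HS pigs. In F1 the 6 TN pigs had 9.57 ± 0.26 and the 5 HS pigs 9.20 ± 0.10. In Large White the 6 TN pigs had 9.77 ± 0.22 and the 6 HS pigs 9.34 ± 0.28. The HS mean was thus the lower one in every breed.

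The brightest EPAS1 probe, O10512, ranged from 12.3 to 13.3 in TN (median 12.8) and from 11.99 to 12.90 in HS (median 12.52). It fell by 0.29 (SE 0.08, adjusted p = 0.00876), with 15 of 17 HS arrays below their breed's TN mean. A_72_P035801 ranged from 7.47 to 8.30 in TN and from 7.24 to 8.19 in HS, and it fell by 0.32 (SE 0.08, adjusted p = 0.00586). The last probe, A_72_P133976, had a difference of −0.26 (SE 0.10, adjusted p = 0.0590) and did not pass. The 4 probes therefore shared their sign, and 3 of them passed.

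**Figure D2:**
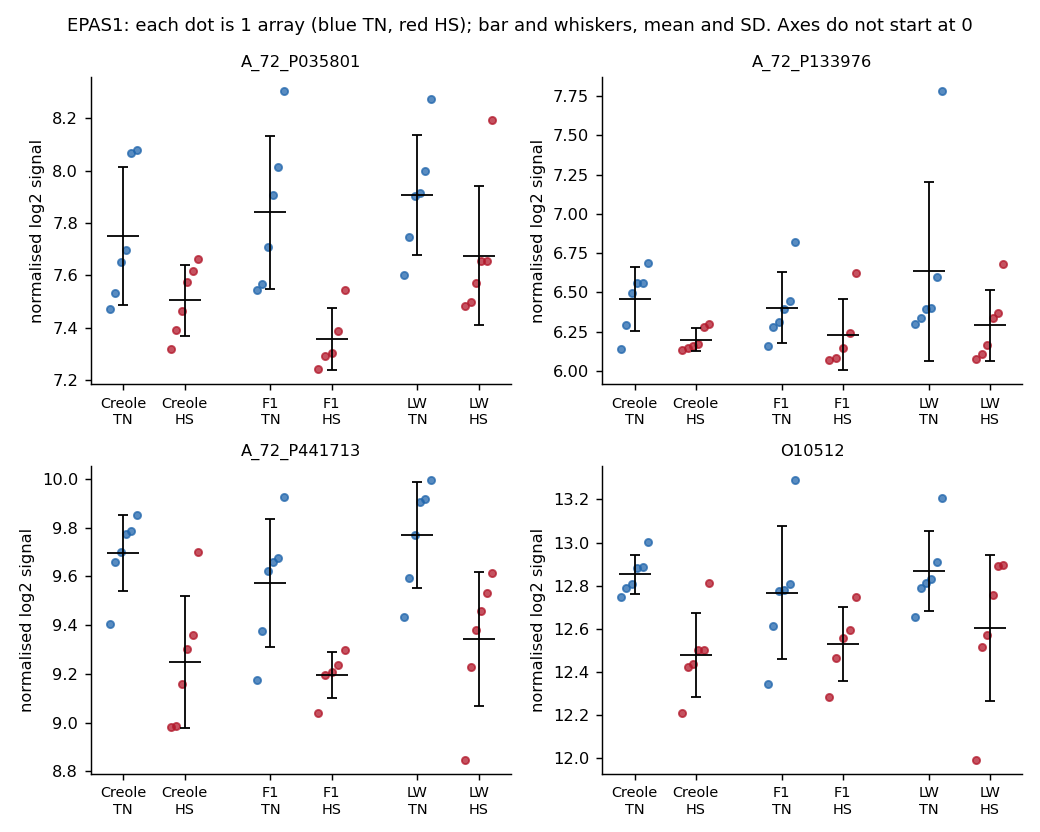
Normalised log2 signal of the 4 EPAS1 probes in each array by breed (LW, Large White) and temperature, with the mean and SD of each group. For A_72_P441713 the HS mean is below the TN mean in Creole, F1 and Large White, and arrays of the 2 temperatures overlap.

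The 4 EPAS1 probes moved together over the 35 arrays. Pearson's r between pairs ran from 0.48 to 0.84 (Spearman's rho 0.53 to 0.85, permutation p adjusted over 29 pairs of probes of the same gene at most 0.00586). The highest was that of A_72_P441713 and O10512, which was 0.76 after group means were removed. Arrays were hybridised on 5 slides. Slide 5 held 1 HS array, of Creole, and 2 TN arrays, of Large White, so temperature and breed cannot be told apart on it and it is left out of the values by slide. Slides 1 to 4 held 4 arrays of each temperature. A_72_P441713 was lower in HS on 3 of these 4 slides (−0.35 to −0.78), and on slide 2 the difference was 0.06. O10512 was likewise lower on 3 of 4 slides (−0.27 to −0.55), with 0.10 on slide 2. The fit with slide as a fixed block gave −0.43 for A_72_P441713 and −0.29 for O10512.

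Markers of other cell types moved with EPAS1. Over the 35 arrays, r between the mean of the endothelial markers and the EPAS1 probes ran from 0.56 to 0.67 (rho 0.48 to 0.68). Each had an adjusted permutation p of at most 0.00302 for r and 0.0221 for rho, over 140 relations of the 20 member probes with 7 marker means. Without the 2 arrays farthest from the median of the markers, r was 0.41 to 0.55, and after group means were removed it was 0.31 to 0.65. The permutations, here and below, exchanged arrays between groups, so their p-values include shifts shared between temperatures or breeds. With the leukocyte mean, A_72_P441713 had r = −0.76 and rho = −0.77, each with an adjusted permutation p of 0.00035, and r was −0.67 within TN and −0.69 within HS. O10512 had r = −0.62 and rho = −0.63 (adjusted permutation p = 0.00035 and 0.00220). A_72_P035801 had r = −0.37 and rho = −0.42 (adjusted permutation p = 0.0682 and 0.0406, r = 0.08 within HS), and A_72_P133976 had r = −0.28 and rho = −0.36 (adjusted permutation p = 0.210 and 0.102, r = 0.14 within HS). Muscle fibre markers moved with 3 of the 4 EPAS1 probes as well, with r = 0.65 for A_72_P441713, 0.70 for O10512 and 0.57 for A_72_P133976 (rho 0.56, 0.62 and 0.48, adjusted permutation p at most 0.00969 for r and 0.0221 for rho). The blood cell mean had r = 0.48 to 0.53 with the 4 probes (rho 0.46 to 0.50, adjusted permutation p at most 0.0113 for r and 0.0278 for rho). Within TN this r was 0.48 for A_72_P133976 and 0.03 to 0.26 for the other 3 probes. Within HS it was 0.11 to 0.38 for the 4 probes. The part of these markers beyond the covariates below was not tested. With the endothelial mean as a covariate, A_72_P441713 kept a difference of −0.33 and was called, and the other 3 EPAS1 probes were not called (−0.09 to −0.24). When the leukocyte mean was the covariate instead, the differences were −0.25 for A_72_P441713, again called, and −0.27, −0.23 and −0.17 for the other 3, not called. Array brightness, the 75th percentile of raw signal, was 535.1 ± 63.5 (mean ± SD) in TN and 612.1 ± 100.8 in HS, and with it as a covariate A_72_P441713 (−0.30) and A_72_P035801 (−0.33) were called and O10512 (−0.19) was not. A change within a cell type and a change in the mix of cell types cannot be told apart in these values.

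HIF1A encodes HIF-1 alpha, and its probes differed in the sign of their HS minus TN difference. Probe A_72_P585741 ranged from 7.06 to 7.47 in TN (median 7.29) and from 6.86 to 7.38 in HS (median 7.08). It fell by 0.15 (SE 0.04, 95% confidence interval −0.23 to −0.06, adjusted p = 0.0137), with 13 of 17 HS arrays below their breed's TN mean. The difference was negative on slides 1 to 4 (−0.11 to −0.15). By contrast, A_72_P213487 ranged from 7.68 to 8.59 in TN and from 7.87 to 8.74 in HS. Its difference was 0.13 (SE 0.08, adjusted p = 0.292). A_72_P280249 had a difference of 0.09 (SE 0.08, adjusted p = 0.508) and O277, which it overlaps, one of 0.08 (SE 0.09, adjusted p = 0.572). These 3 probes did not pass, and their intervals (lowest bound −0.10, highest 0.30) leave both signs possible.

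The disagreement can also be written within arrays, as the difference between A_72_P585741 and each other HIF1A probe. A_72_P585741 was singled out after its values were seen, so these differences are a description, with no test. Against A_72_P213487, the mean difference ± SD was −0.88 ± 0.30 over the 18 TN arrays and −1.17 ± 0.21 over the 17 HS arrays. HS minus TN of this difference was −0.28 (SE 0.09). It was −0.24 (SE 0.09) against A_72_P280249 and −0.23 (SE 0.09) against O277. The 3 values share those of A_72_P585741, and they do not say which probe follows the gene.

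**Figure D3:**
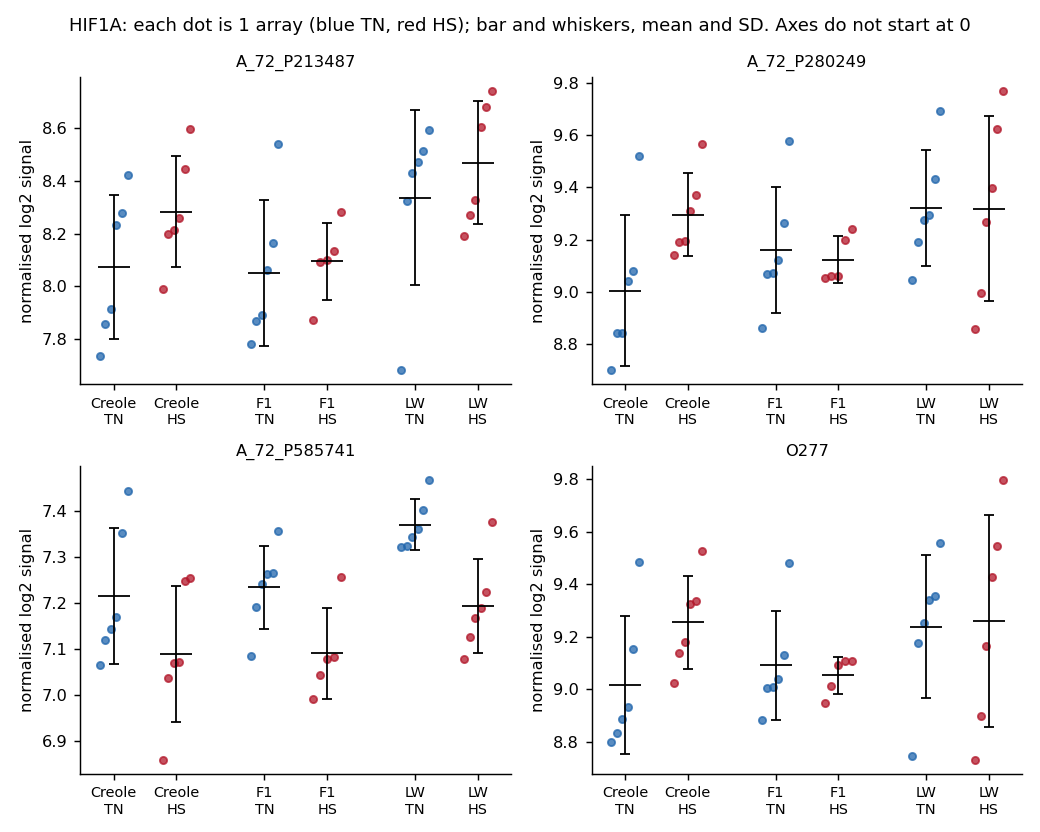
Normalised log2 signal of the 4 HIF1A probes in each array by breed (LW, Large White) and temperature, with the mean and SD of each group. A_72_P585741 has a lower HS mean in each breed, and the other 3 have their largest HS minus TN difference in Creole (0.21 to 0.29).

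The HIF1A probes also differed over single arrays. A_72_P213487, A_72_P280249 and O277 correlated with each other at r = 0.80 to 0.93 (rho 0.77 to 0.91, adjusted permutation p = 1.93e-05 for r and 2.64e-05 for rho, the smallest that the permutations allow). With A_72_P585741 their r was 0.06 to 0.16 and rho 0.09 to 0.18, and the smallest adjusted permutation p was 0.468 for r and 0.379 for rho. The array holds a further probe, under another name, with the same 60 bases as A_72_P213487. Its values followed A_72_P213487 with r = 0.96 over 35 arrays, and its HS minus TN difference was 0.10 (SE 0.09, adjusted p = 0.467), so the differences between pigs at A_72_P213487 recurred on a second spot. A_72_P585741 has no probe sharing a run of 20 bases or more with it.

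Over the 35 arrays together, leukocyte markers moved with 3 of the 4 HIF1A probes. The correlation with the leukocyte mean was r = 0.57 for A_72_P213487 (rho = 0.54), 0.62 for A_72_P280249 (rho = 0.53) and 0.56 for O277 (rho = 0.51), each with an adjusted permutation p of at most 0.00302 for r and 0.0163 for rho. For A_72_P585741 it was r = −0.12 (rho = −0.07, adjusted permutation p = 0.650 for r). Within HS, however, its r was 0.55, where the other 3 probes had 0.62 to 0.75. Within TN it was −0.03, where they had 0.45 to 0.61. Without the 2 arrays farthest from the median of the leukocyte mean, r was 0.57 to 0.60 for the 3 probes and 0.09 for A_72_P585741. The same 3 probes moved inversely with the muscle fibre mean, with r = −0.52, −0.50 and −0.59 (rho −0.37, −0.43 and −0.45, adjusted permutation p at most 0.00861 for r and 0.0909 for rho), and without the 2 farthest arrays r was −0.37, −0.27 and −0.39. They moved with the connective tissue mean at r = 0.54, 0.56 and 0.47 (rho 0.50, 0.42 and 0.43, adjusted permutation p at most 0.0131 for r and 0.0431 for rho). A_72_P585741 had r = 0.49 with the endothelial mean and 0.53 with the blood cell mean (rho 0.46 and 0.48, adjusted permutation p at most 0.00937 for r and 0.0250 for rho). After group means were removed these r were only 0.15 and 0.24. They were 0.28 and 0.17 within TN, and 0.47 and 0.48 within HS. After adding the leukocyte mean to the model, the 3 probes had differences of −0.04 to −0.09, not called, and A_72_P585741 kept −0.17 and was called. The call of A_72_P585741 was lost with median scaling (−0.11), spike-in scaling (−0.04), array brightness (−0.15) or the endothelial mean (−0.13) in the fit.

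ARNT encodes the beta subunit shared by both factors. A_72_P665317 ranged from 7.48 to 8.08 in TN (median 7.86) and from 7.40 to 7.87 in HS (median 7.71), and it fell by 0.15 (SE 0.05, adjusted p = 0.0336). The difference was negative on slides 1 to 4 (−0.08 to −0.21), and 15 of 17 HS arrays lay below their breed's TN mean. A_72_P443508 had a difference of −0.10 (SE 0.05, adjusted p = 0.148), A_72_P175836 one of −0.06 (SE 0.05, adjusted p = 0.518) and O5420 one of 0.07 (SE 0.07, adjusted p = 0.511). The call of A_72_P665317 was the least firm of the 5: it was lost when any 1 of 5 arrays was left out (Creole TN replicate 1, F1 HS replicate 4, Creole HS replicate 3, Creole HS replicate 5 or Large White TN replicate 5), with differences of −0.14 each. Median scaling (−0.10), spike-in scaling (−0.03) and the covariates array brightness (−0.18) and endothelial mean (−0.17) lost it too. A probe under another name has the same 60 bases as A_72_P175836, and the 2 had r = 0.07 over 35 arrays, so at this low level differences between pigs did not recur on a second spot.

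EGLN1 encodes PHD2, the main oxygen-sensing prolyl hydroxylase. Its brightest probe, A_72_P532618, ranged from 13.3 to 14.2 in TN (median 13.6) and from 13.0 to 13.9 in HS (median 13.5). Its difference was −0.19 (SE 0.07, adjusted p = 0.0794). A_72_P292179 had −0.21 (SE 0.08, adjusted p = 0.0577), A_72_P121321 −0.18 (SE 0.08, adjusted p = 0.120), A_72_P590364 −0.17 (SE 0.09, adjusted p = 0.203) and the dim O10683 −0.08 (SE 0.05, adjusted p = 0.341). No EGLN1 probe passed, although all 5 lay below 0. The 4 brighter probes had differences of −0.26 to −0.34 in Creole, −0.19 to −0.24 in Large White and −0.07 to 0.05 in F1, and the interaction was not called for any of them. The 5 probes moved together, with r = 0.68 to 0.92 between pairs (rho 0.50 to 0.90, adjusted permutation p at most 0.00368).

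EGLN1 followed the leukocyte markers inversely. For A_72_P292179 r was −0.86 and rho −0.83 over 35 arrays (adjusted permutation p = 0.00035 for each), with r = −0.88 within TN, −0.80 within HS and −0.83 without the 2 arrays farthest from the median. The other EGLN1 probes had r between −0.67 and −0.81 and rho between −0.53 and −0.82. The 5 probes also moved with the muscle fibre mean (r 0.53 to 0.65, rho 0.45 to 0.58, adjusted permutation p at most 0.00632 for r and 0.0280 for rho), and r was 0.28 to 0.43 without the 2 farthest arrays. With the connective tissue mean r was −0.52 to −0.58 (adjusted permutation p at most 0.00969) and rho −0.40 to −0.53. For rho the adjusted permutation p was 0.0559 to 0.0598 for A_72_P292179, A_72_P532618 and A_72_P590364, and 0.0128 and 0.0229 for A_72_P121321 and O10683. Without the 2 farthest arrays r was −0.14 to −0.41. With leukocyte level in the model, the HS minus TN differences of the 5 probes were 0.00 to 0.04. A_72_P532618 was lower in HS on 3 of slides 1 to 4 (−0.21 to −0.38), and slide 2 had 0.05.

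EGLN2 encodes PHD1. A_72_P323278 ranged from 13.8 to 14.4 in TN and from 13.8 to 14.4 in HS, with a difference of 0.05 (SE 0.05, 95% confidence interval −0.05 to 0.16, adjusted p = 0.534). The difference at O9728 was −0.04 (SE 0.07, 95% confidence interval −0.18 to 0.10, adjusted p = 0.757). A change of the size seen at EPAS1 A_72_P441713 lies outside both intervals. EGLN3 encodes PHD3, itself a HIF target. Its probe O13581 ranged from 7.11 to 7.85 in TN and from 7.16 to 7.83 in HS, with a difference of −0.13 (SE 0.06, adjusted p = 0.160). Within F1 the difference was −0.30 (SE 0.11, adjusted p = 0.387). Another pair of probes reads EGLN3 by accession or description only. Their differences were −0.10 (SE 0.08, adjusted p = 0.406) and 0.01 (SE 0.07, adjusted p = 0.961), and their r with O13581 was 0.50 and 0.31 as a description over 35 arrays.

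**Figure D4:**
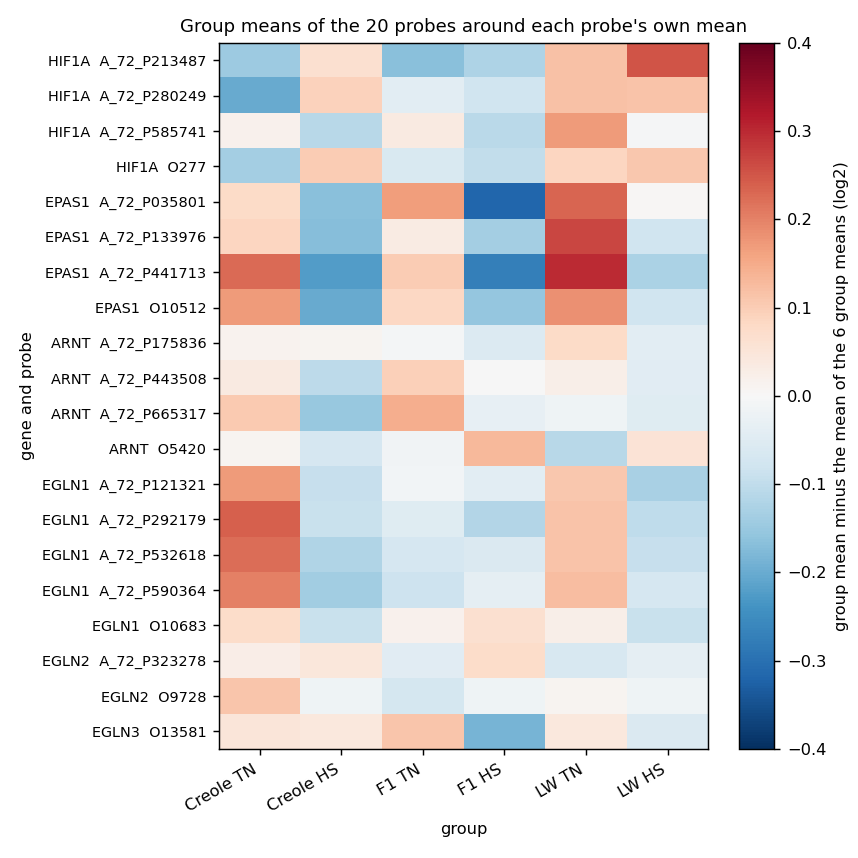
Mean of each of the 6 groups (LW, Large White) minus the mean of the 6 group means of the same probe, in log2 units, for the 20 probes. The values run from −0.32 to 0.30, and the EPAS1 rows are below 0 in Creole HS and F1 HS and above 0 in all TN groups.

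Breed did not separate the members at the threshold. By limma, 0 member probes were called for Creole minus Large White (3.64% of all probes called), F1 minus Large White (0.525%), F1 minus Creole (0.477%), F1 minus the parental midpoint (0.246%), Creole minus Large White in TN (0.997%) or in HS (0.296%). At an unadjusted p below 0.05 the counts were 2, 2, 0, 1, 2 and 0 of 20. The shares of all probes at that same cut-off were 15.4%, 10.5%, 8.88%, 7.35%, 13% and 7.17%, in the same order. The closest to a call were probes of HIF1A. A_72_P585741 was −0.13 (SE 0.05, adjusted p = 0.167) for Creole minus Large White, and A_72_P213487 was −0.33 (SE 0.10, adjusted p = 0.168) for F1 minus Large White. For A_72_P213487 the group means were 8.05 (TN) and 8.10 (HS) in F1, and 8.34 and 8.47 in Large White. By slide, its F1 minus Large White difference was −0.04, −0.06, −0.41 and −0.64 on slides 1 to 4. Each slide held 2 or 3 pigs of each of these breeds, and temperature was not held in these values. The EPAS1 probes had differences of −0.07 to −0.16 for Creole minus Large White (adjusted p 0.422 to 0.805). For HS minus TN within breeds, the member nearest to the threshold was A_72_P441713 in Creole, with −0.45 (SE 0.13, adjusted p = 0.0586), and in Large White, with −0.42 (SE 0.13, adjusted p = 0.114). In F1 it was A_72_P035801, with −0.49 (SE 0.14, adjusted p = 0.214), where A_72_P441713 had −0.38 (adjusted p = 0.369).

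Genes of the pathway beyond the members were read with 1 probe per gene, the brightest. On that basis 18.3% of all 9667 genes were called for temperature (8.46% higher, 9.83% lower), with a median difference of −0.02. Of 20 HIF partners and regulators, 16 were tested, of which 3 were called higher and 1 lower (median −0.03). HSP90AB1, a chaperone that holds the alpha subunit, rose by 0.43 (SE 0.08, adjusted p = 0.000497). CITED2, which competes with HIF for its coactivators, rose by 0.28 (SE 0.10, adjusted p = 0.0446), although none of its 5 other probes was called and 1 had the opposite sign. OS9, a protein of the endoplasmic reticulum, rose by 0.23 (SE 0.05, adjusted p = 0.00415). The gene called lower was ARNT2, a second beta subunit (−0.15, SE 0.05, adjusted p = 0.0432). HIF1AN, which encodes FIH, had −0.15 (SE 0.07, adjusted p = 0.160), and HIF3A had −0.03 (SE 0.15, adjusted p = 0.927).

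Of the HIF targets of glucose metabolism, 16 of 19 were tested, with 6 called lower and 0 higher (median −0.13). The largest were the glycolytic enzymes TPI1 (−0.52, SE 0.15, adjusted p = 0.0140), PGK1 (−0.45, SE 0.08, adjusted p = 0.000427) and ALDOA (−0.32, SE 0.06, adjusted p = 0.000999). All 5 other probes of TPI1 and all 6 of PGK1 were called as well, none with the opposite sign. Glycolytic enzymes are muscle fibre genes in their own right and not only HIF targets. SLC2A1, the glucose transporter GLUT1 and a classical HIF target, had 0.18 (SE 0.11, adjusted p = 0.253).

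Of the targets in vessels and iron handling, 12 of 13 were tested, 5 were called lower and 0 higher, and all 12 lay below 0 (median −0.22). ANGPTL4, an inhibitor of lipoprotein lipase, fell by 1.07 (SE 0.32, adjusted p = 0.0206). TFRC, the transferrin receptor, fell by 0.96 (SE 0.22, adjusted p = 0.00384), and FLT1, a VEGF receptor of endothelium, fell by 0.33 (SE 0.07, adjusted p = 0.00196). VEGFA, the main angiogenic target, had −0.33 (SE 0.12, adjusted p = 0.0665). The shared sign holds for the brightest probes: 1 of 3 other probes had the opposite sign for VEGFA, and likewise 1 of 3 for TF. This list shares KDR with the endothelial markers. In the same comparison the blood cell marker HBB, a globin, fell by 1.21 (adjusted p = 0.000536), the only call among 3 blood cell markers tested. The median of these markers was −0.23, and 1 of them lay above 0, at 0.37. The connective tissue markers COL3A1, LUM and FN1 were called higher, 3 of 7 tested (median 0.33). The part of either list in these values was not tested. For Creole minus Large White it held the only calls among the 4 lists of HIF genes. ANGPTL4 was −1.64 (SE 0.38, adjusted p = 0.0105) and KDR −0.96 (SE 0.16, adjusted p = 0.000348) in that comparison, where 3.74% of genes were called (1.52% higher, 2.22% lower). Endothelial markers moved with this too, with 3 of 9 (KDR, CLDN5 and PECAM1) called lower in Creole and 0 higher. Their part in the result was not tested.

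Among 20 other targets, 19 were tested, 1 was called higher and 1 lower (median −0.05). NDUFA4L2, which lowers complex I activity under hypoxia, fell by 0.35 (SE 0.09, adjusted p = 0.00610), and its 2 other probes were called too. BNIP3L, the relative of BNIP3, rose by 0.23 (SE 0.07, adjusted p = 0.0267), with 1 of its 5 other probes called and none of opposite sign. Over the 3 lists of targets, the calls were thus 6, 5 and 1 lower, against 0, 0 and 1 higher.

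**Figure D5:**
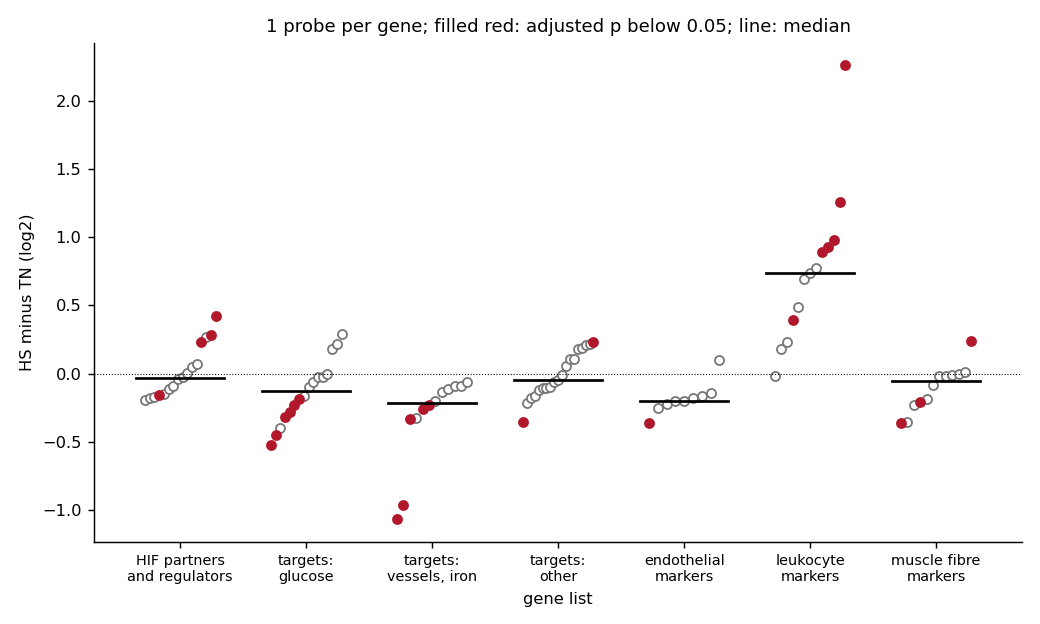
HS minus TN (log2) of each gene, 1 probe per gene, in the 4 lists of HIF genes and 3 lists of cell type markers. Filled red points passed an adjusted p of 0.05 and lines are medians, from −0.22 in the targets of vessels and iron to 0.74 in the leukocyte markers.

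The genes whose levels were most like each member were taken over the 35 arrays, from 9666 genes, for the brightest probe of each member. For EPAS1 they were CPT1B (r = 0.83), ITM2A (0.81) and S1PR1 (0.80), and for HIF1A the highest values were those of ARF4 (0.85) and CA12 (0.84). The CA12 probe was dim, with a mean level of 6.02, and was well above background on 28 of 35 arrays. The brightest HIF1A probe is A_72_P280249, one of the 3 whose HS minus TN difference had the opposite sign to that of A_72_P585741. EGLN1 was most like MLH3 (0.89), PCM1 (0.89) and ATMIN (0.88). EGLN2 was most like LMAN2L (0.73), NIT1 (0.69) and DDX6 (0.68). For ARNT the highest were ICMT (0.65), EIF4G2 (0.64) and IL6ST (0.64), and for EGLN3 BAK1 (0.58), B9D1 (0.56) and ASH2L (0.55). These arrays share the normalisation, and the genes were picked for high r, so the values are a description.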

How the data were processed

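The authors hybridised Cy3-labelled RNA of each muscle to 1-colour Agilent arrays. Per the file headers, the deposited scanner intensity values came from Feature Extraction 10.10.1.1. The authors also deposited a log2 table, quantile normalised, of 40649 probes. Other quality columns deposited are 0 or 1 flags. Here the median intensity of non-control spots was quantile normalised and log2 transformed. Outlier spots (0 to 8 per array) were left out, and a probe was kept if 75% or more of a group's arrays had it well above background (41517 probes). limma 3.58.1 (R 4.3.3) fitted breed plus temperature, or the 6 group means, with Benjamini-Hochberg adjustment at 0.05. The study's model also had pen, slaughter day, father and mother, which the labels do not give. The number of arrays limits the precision. On simulated data, 97.5% of 200 probes shifted by 1 log2 unit were recovered for temperature and 95.0% for Creole minus Large White (41465 probes). All member differences were smaller than this shift, so these shares do not say how often a difference of their size would be called. The members and lists were chosen with earlier results of these data known. In each list the 3 largest changes past the threshold were named, and other genes for their role, after their values were seen. Probe sequences come from the scanner files. The study's methods say that the probe annotation was updated on Sscrofa11.1. The scanner files used here give no positions on it, so no coordinates are printed. Alternatives were 15 settings and leaving out each of 35 arrays. A further gene most like HIF1A is not reported here.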

Additional observations from a re-analysis of the deposited data

Results flagged for a closer look

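A lone array stood apart from the rest of its group in 9 of the 120 sets looked at (20 probes in 6 groups), and chance flags about 1 in 20. The measure is the gap to the nearest array as a share of the range of the group. The EPAS1 probe A_72_P133976 had a share of 0.798 in Large White TN, where replicate 1 was at 7.78 and the highest of the others lay more than 1 log2 unit lower. Without that array the difference of this probe was −0.18 and it was called. The same array was lowest in its group at HIF1A A_72_P213487 (0.705), at 7.68 with the others between 8.32 and 8.59. The EPAS1 probe A_72_P035801 had 0.758 in Large White HS (replicate 1, 8.19). ARNT A_72_P175836 had 0.818 in Creole HS (replicate 5, 6.08). EGLN1 had 4 such sets. They were 0.668 for A_72_P121321 in F1 TN (replicate 2, 11.1), 0.744 for the same probe in F1 HS (replicate 5, 11.7), 0.810 for A_72_P292179 in Creole HS (replicate 1, 12.5) and 0.756 for A_72_P590364 in Creole TN (replicate 1, 12.4). EGLN3 O13581 had 0.764 in F1 TN (replicate 5, 7.11). Creole HS replicate 1 and F1 TN replicate 2 had leukocyte marker means of 11.34 and 11.01, among the highest of the 35 arrays.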

How the results depend on the processing

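The 5 probes called for temperature became 8 with 75th percentile scaling and 8 with the processed signal, 1 with spike-in scaling, and 2, 1 and 3 with array brightness, the endothelial mean and the leukocyte mean as a covariate. Leaving out 1 array gave 4 to 9, with 9 without F1 TN replicate 2 and 8 without Large White TN replicate 6. Calls over all 41517 probes moved too, from 6654 as reported to 9320 with 75th percentile scaling. They were 7286 with the processed signal and 4663 with spike-in scaling, and are not given here for the covariates or for the arrays left out. EPAS1 A_72_P441713 was called under all 50 alternatives (−0.25 to −0.45, adjusted p at most 0.0212), A_72_P035801 under 47, O10512 and HIF1A A_72_P585741 under 46 and ARNT A_72_P665317 under 41. Under spike-in scaling the differences of HIF1A A_72_P585741 and ARNT A_72_P665317 were −0.04 and −0.03. The shares of higher probes among all temperature calls were 48.2% as reported, 27.2% with 75th percentile scaling, 37.5% with the processed signal, 56.7% with median scaling and 86.5% with spike-in scaling. The median over all probes stayed between −0.08 and 0.07. EPAS1 remained lower under each of these scalings. The signs of EGLN2 A_72_P323278 and O9728, and of ARNT O5420, A_72_P175836 and A_72_P443508, turned under some scalings, none called. The HIF1A probe differences, added after the data were seen, lay between −0.18 and −0.34 under 39 alternatives each. Within Creole, 1 member probe was called with slide as a fixed block and 1 with array weights, and leaving out 1 array gave 0 to 1 (1 without Creole TN replicate 3, Creole HS replicate 2, F1 TN replicate 2, Large White HS replicate 5 or Large White TN replicate 6). Within F1, array weights gave 2. Within Large White, leaving out 1 array gave 0 to 1 (1 without Large White TN replicate 6). For F1 minus Large White, 1 was called with array weights, 1 with the leukocyte mean, and leaving out 1 array gave 0 to 1 (1 without Large White TN replicate 1). The cause was not tested. No paired analysis was possible because replicate numbers follow the order of the samples and the labels give no litter. The low signal of ARNT O5420, well above background on 32 of 35 arrays, limits what can be read from it.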
